A study of Mus musculus with 8 samples.

Results

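Dendritic cells are antigen-presenting leukocytes that are rare in the healthy brain, where they sit mainly at its borders, and that enter the tissue after injury. Conventional type 1 dendritic cells carry the chemokine receptor Xcr1 and the dead-cell receptor Clec9a and are known for presenting antigen from dead cells to CD8+ T cells, while type 2 cells, marked by Cd209a and Clec10a, are known mainly for priming CD4+ T cells. Either type can mature, and mature cells gain Ccr7, the receptor that guides them to draining lymph nodes, together with costimulatory molecules. The cells described here were taken from 8 droplet single-cell libraries of mouse brain by their raw UMI counts (a UMI tags 1 captured RNA molecule). A cell was kept with at most 10% mitochondrial UMIs. It counted as dendritic with at least 3 UMIs in all of Xcr1, Clec9a, Flt3 (the receptor for the dendritic cell growth factor) and Ccr7, at most 2 UMIs of Csf1r, at most 1 of Csf3r, none of Cd3e or Cd79a, and at least 20 UMIs per 10000 from the class II genes H2-Aa, H2-Ab1 and H2-Eb1. This gave 245 of 39608 kept cells (0.619%), among 39945 in the files. The cells were thus chosen by the measured counts of these 11 genes, whose levels are therefore a description and support nothing.

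The libraries came from male C57BL/6J mice aged 8 to 9 weeks after 60 min of transient middle cerebral artery occlusion and reperfusion, and each held live-sorted cells of 1 hemisphere. There was 1 library for each combination of genotype label (Prdx1-/- or WT), brain side (the occluded, ipsilateral one or the contralateral one) and time (24 or 48 h), and the labels do not say how many animals each held. The libraries labelled Prdx1-/- are named so throughout, because dendritic cells of both 24 h ones held transcripts of Prdx1, a peroxide-reducing enzyme. Prdx1 stood at 173 CPM (166 UMIs) in the 24 h ipsilateral and 37.4 CPM (3 UMIs) in the 24 h contralateral library labelled Prdx1-/-, and at 0 in both 48 h ones. In the WT libraries it stood at 337 CPM (24 h ipsilateral), 193 CPM (24 h contralateral), 509 CPM (48 h ipsilateral) and 314 CPM (48 h contralateral). CPM (counts per 1000000) here is a gene's part of the UMIs of the dendritic cells summed in a library. Libraries held 4189 to 5759 cells and 39433266 to 70111421 UMIs, and pairs of libraries shared 3 to 17 cell barcodes, 3 of the dendritic cells among them.

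The cells carried transcripts of the dendritic lineage that the rule did not use. Summed over Zbtb46 (a transcription factor of conventional dendritic cells), Kit, Dpp4 and Btla, they had 322 CPM, against 45.2 CPM in 506 Csf1r+ cells that met the same class II threshold (at least 3 Csf1r UMIs and none of Tmem119, P2ry12 or Mrc1) and 2.60 CPM in 20469 microglial cells (at least 3 UMIs of Tmem119 and P2ry12). Median depth was 14543 UMIs per dendritic cell (range 1599 to 33147), against 14270 in the Csf1r+ class and 8392 in the microglial cells. Markers of other cells varied. Cpa3, Mcpt8, Ms4a2 and Fcer1a of mast cells and basophils, all 4 of that list, were at 0 in the dendritic cells. The 7 microglial markers summed to 201 CPM, against 301 CPM in the Csf1r+ class and 13150 CPM in microglial cells. Below the Csf1r+ class were also the summed markers of neutrophils (199 against 238 CPM, with Ly6g at 0), oligodendrocytes (52.0 against 94.5 CPM, with Mog at 0), border macrophages (20.2 against 23.9 CPM, with Cbr2 at 0) and NK cells (14.4 against 31.2 CPM). Above it were those of erythrocytes (9296 against 1370 CPM), plasmacytoid cells (945 against 417 CPM), B cells (87.1 against 27.8 CPM), endothelium (57.7 against 25.7 CPM) and T cells (1.91 against 0.915 CPM, with Trbc2 at 0). At the edge of the rule, 58 dendritic cells had exactly 3 UMIs of the 4 genes, and 87 cells with 2 UMIs met every other term and were left out.

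Of the 245 cells, 9 went against the label of conventional or mature dendritic cells. They had 21 to 52 UMIs each of Siglech, a plasmacytoid dendritic cell lectin, against at most 6 in the other cells of the subsets they fell in. All 9 held Ly6d, Ccr9, Cox6a2 and Tcf4, 8 held Klk1, and none held Xcr1, Batf3, Naaa or Snx22. They entered through Flt3 and Clec9a. A further 6 cells held 98.0% of all hemoglobin UMIs of the dendritic cells. Without these 15 cells 1 gene, C1qc, differed by hemisphere in place of 0, and none of the 3 tests of the dendritic share of kept cells changed its call.

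Cells fell into 3 subsets by the rule's own genes. The Ccr7 subset (at least 2 Ccr7 UMIs) had 72 cells, the Xcr1/Clec9a subset (at least 2 UMIs of those genes, under 2 of Ccr7) had 61, and the Flt3 subset (the rest) had 112. Differences between them are given without a test. Levels are pooled over the libraries, in CPM, unless stated otherwise.

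The Ccr7 subset held the maturation genes. All 13 members of the mature marker list outside the rule were highest there. Ccl22, which draws Ccr4+ T cells, stood at 602 CPM in the Ccr7 subset, 0 in the Xcr1/Clec9a subset and 1.86 in the Flt3 subset, against 4.58 CPM in the Csf1r+ class. Il4i1, an amino acid oxidase that limits T-cell growth, stood at 506 CPM in the Ccr7 subset, 0.928 in the Xcr1/Clec9a subset and 6.19 in the Flt3 subset. Fscn1, the actin-bundling protein of dendritic cell processes, had 283, 0.928 and 0 CPM in that order. Microglial cells also held it, at 135 CPM. Relb, the Rel factor of dendritic cell maturation, was found in 93.1% of Ccr7-subset cells and at 367 CPM, against 30.6 CPM in the Xcr1/Clec9a and 60.6 CPM in the Flt3 subset.

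Most of the surface ligands listed were also highest in the Ccr7 subset. Of 14 costimulation and checkpoint genes, 12 were highest in the Ccr7 subset. The share of all genes highest there was not counted, so such counts are not shown to be particular to a list. It also led in 16 of 18 interferon-response and 12 of 18 glycolysis and hypoxia genes, against 0 of 16 dissociation and immediate-early genes. Summed, the 14 stood at 2556 CPM in the Ccr7 subset and 1586 CPM in microglial cells. Cd274, the ligand of the inhibitory receptor PD-1, reached 240 CPM there, against 15.8 in the Xcr1/Clec9a subset and 18.6 in the Flt3 subset. Cd40, the costimulatory receptor, reached 115 CPM, against 7.43 and 32.2 in those subsets. Cxcl16, a chemokine for Cxcr6+ T cells, reached 984 CPM, against 94.7 and 63.7. Il12b, a subunit of interleukin-12, was found in 6 cells, all in the Ccr7 subset. Ido1, a tryptophan-degrading enzyme often used to mark mature dendritic cells, had no UMI in any dendritic cell, and 0 of 245 cells limits only cells with a captured UMI, to a share of up to 1.22%. All 245 cells held Cd74, the class II chaperone, at 21620 CPM in the Ccr7 subset, 17800 in the Xcr1/Clec9a subset and 19220 in the Flt3 subset.

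By the ratio to the next subset, with libraries of at least 10 cells of a subset weighted equally, the 8 leading genes of the Ccr7 subset were Ccl17, Ccl22, Fabp5, Il4i1, Slc7a11, Fscn1, Cd63 and Anxa3. Ccl17, the other chemokine for Ccr4, averaged 1009 CPM in the Ccr7 subset, 0 in the Xcr1/Clec9a subset and 9.74 in the Flt3 subset. Fabp5, a fatty acid-binding protein, averaged 2657, 11.4 and 38.0 CPM in that order. For the Ccr7 subset these averages rest on 2 libraries, in which Fabp5 stood at 1181 CPM (24 h ipsilateral, labelled Prdx1-/-) and 4134 CPM (48 h WT ipsilateral). Slc7a11, the cystine transporter that feeds glutathione synthesis, averaged 270 CPM in the Ccr7 subset, 6.22 in the Xcr1/Clec9a subset and 6.41 in the Flt3 subset. Slc7a11 was not particular to these cells, since the Csf1r+ class held it at 384 CPM.

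Ccl17 and Ccl22 lie near each other on chromosome 8 and were found in the same cells. In the Ccr7 subset 19 cells held a Ccl17 UMI and 39 a Ccl22 UMI, and 18 held both, which is 94.7% of the first and 46.2% of the second. Their levels differed between the libraries that could be compared, without a test. In the Ccr7 subset of the 24 h ipsilateral library labelled Prdx1-/-, Ccl17 stood at 1935 CPM and Ccl22 at 854 CPM, against 82.7 and 241 CPM in that of the 48 h WT ipsilateral library. Few cells carried most of it: 1 cell held 318 of the 626 Ccl17 UMIs of the 24 h ipsilateral library labelled Prdx1-/-. The 250 bases upstream of the start in each gene's promoter entry are shown (RefSeq, GRCm38.p6, 5′ to 3′ in the direction of transcription), because these chemokines lead the subset. The Ccl17 gene record as a whole begins earlier, at position 94809380, so its window lies inside that record. Capitals would mark the NF-kB consensus, searched on both strands with no other motif. It was in neither. It was in 0 of the 6 leading Ccr7-subset genes with an entry, and in 1894 of all 27025 promoters (7.01%). No match says only that these letters are not in this window.
Ccl17, chr8:94810203-94810452, plus strand: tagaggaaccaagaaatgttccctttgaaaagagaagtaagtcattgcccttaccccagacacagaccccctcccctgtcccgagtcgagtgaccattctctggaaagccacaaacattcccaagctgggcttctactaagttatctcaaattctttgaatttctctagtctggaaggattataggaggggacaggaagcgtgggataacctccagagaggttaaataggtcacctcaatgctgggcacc
Ccl22, chr8:94745434-94745683, plus strand: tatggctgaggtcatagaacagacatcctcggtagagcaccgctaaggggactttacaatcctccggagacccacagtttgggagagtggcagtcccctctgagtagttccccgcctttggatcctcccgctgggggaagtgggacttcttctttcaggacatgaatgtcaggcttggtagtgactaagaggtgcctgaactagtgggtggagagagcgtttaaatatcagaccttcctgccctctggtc

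**Figure D1:**
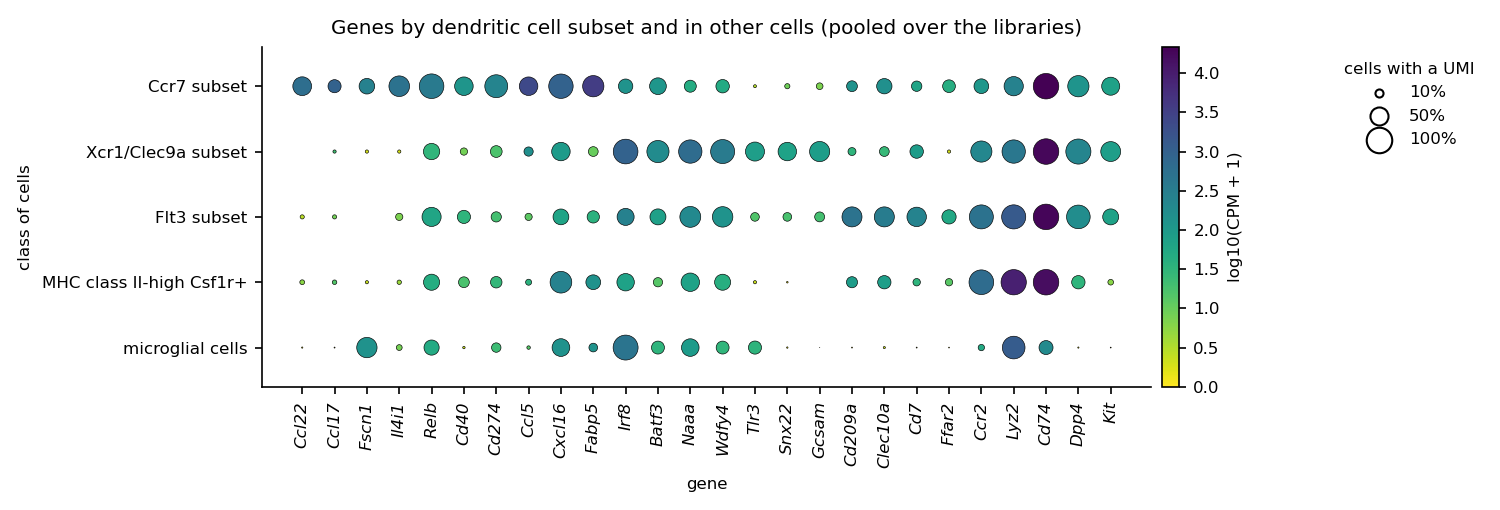
Genes (x axis) by class of cells (y axis): circle area is the percent of cells with a UMI and colour is log10(CPM + 1) pooled over libraries. Ccl22 to Fabp5 are highest in the Ccr7 subset, Irf8 to Gcsam in the Xcr1/Clec9a subset, and Cd209a, Clec10a and Cd7 in the Flt3 subset.

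The Xcr1/Clec9a subset held the type 1 genes. All 10 type 1 markers outside the rule were highest there among the 3 subsets. Irf8, the transcription factor that type 1 cells need, stood at 961 CPM in the Xcr1/Clec9a subset, 126 in the Ccr7 subset and 274 in the Flt3 subset. Naaa, a lipid amidase, stood at 649, 46.0 and 198 CPM in that order, and Wdfy4, which type 1 cells need to cross-present, at 357, 50.1 and 129 CPM. Tlr3, the sensor of double-stranded RNA, was found in 55.7% of these cells, against 1.39% of the Ccr7 and 11.6% of the Flt3 subset and 1.58% of the Csf1r+ class. Gcsam was found in 62.3% of Xcr1/Clec9a cells and in 3 of 20469 microglial cells. By the ratio to the next subset the leading genes were Gzmb, Siglech, Plet1, Sept3, Ly6d, Rab7b, P2ry14 and Irf8, and several rest on few cells. Gzmb, the cytotoxic protease, had 85 of its 91 UMIs in 1 cell, and Siglech and Ly6d were those of the Siglech-high cells above.

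The genes that led the Flt3 subset included Lyz2, Ccr2, Cd209a, Emb, Ppp3ca, Nupr1 and Ccl6. Cd209a, the lectin of type 2 cells, stood at 481 CPM in the Flt3 subset, 131 in the Ccr7 subset and 31.6 in the Xcr1/Clec9a subset, and was found in 61.6% of Flt3-subset cells, against 0.151% of microglial cells. Clec10a was also found in 61.6% of them. Ccr2, the receptor by which monocytes leave the blood, stood at 497 CPM there, against 108 in the Ccr7 and 213 in the Xcr1/Clec9a subset, and 666 CPM in the Csf1r+ class. Of the 9 type 2 markers 5 were highest in the Flt3 subset and 4 in the Ccr7 subset. Summed, the 9 stood at 1276 CPM in the Flt3 subset, 578 in the Ccr7 subset and 162.5 in the Xcr1/Clec9a subset. Other cells also held them, with 471.5 CPM in the Csf1r+ class and 558 CPM in microglial cells. The subset was mixed, since 17 of its 112 cells held a UMI of Xcr1 or Clec9a.

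Within the Ccr7 subset, Fscn1 divided the cells. This split was chosen after the values were seen and has no test. The 27 cells with an Fscn1 UMI pooled to 8021 CPM of Fabp5, 1242 of Ccl22 and 269 of Cacnb3, against 1322, 246 and 19.1 CPM in the 45 without one. Median depths were 12622 and 13041 UMIs in that order. The 3 class II genes of the rule ran the other way, which is a description since the cells were chosen by them. They had a median of 169 per 10000 UMIs in the 27 cells (quartiles 62.2 and 322) and 364 in the 45 (quartiles 294 and 461). Outside the rule, Cd74 pooled to 17250 CPM with Fscn1 and 24050 CPM without. Ciita, also of the class II list, differed little as a pooled level, at 137 and 146 CPM. By cells it differed more, with a UMI in 44.4% of the 27 and 68.9% of the 45. Clec10a stood at 11.4 CPM with Fscn1 and 227 CPM without, and Il12b was found in 1 of the 27 and 5 of the 45 cells, with 34 of its 46 UMIs in 1 cell of the 48 h WT ipsilateral library. Of the 27 cells 7 came from contralateral libraries, against 4 of the 45.

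**Figure D2:**
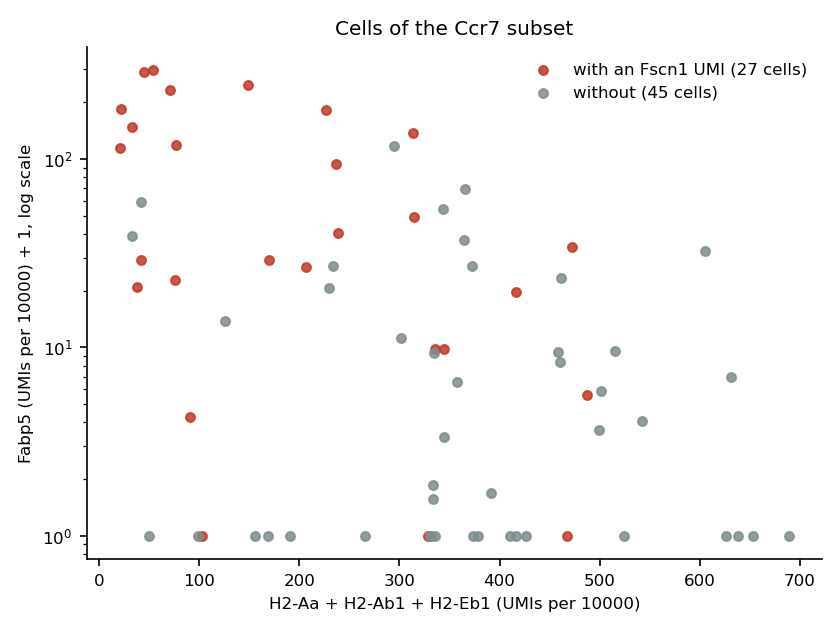
Each point is 1 of the 72 cells of the Ccr7 subset, by UMIs per 10000 of the class II genes of the rule (x axis) and Fabp5 UMIs per 10000 plus 1 (y axis, log scale), coloured by whether an Fscn1 UMI was found. The 27 cells with Fscn1 lie toward low class II and high Fabp5, and both colours overlap.

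Against the Csf1r+ class, whose cells also present on class II, the dendritic cells held less of the monocyte and macrophage markers as a sum. Pooled over libraries, the 10 markers outside the rule summed to 1392 CPM in dendritic cells and 16720 CPM in the Csf1r+ class. Not every member was lower: Ly6c2 stood at 62.6 to 243 CPM and 29.45 to 159 CPM in that order, in the 6 libraries below. Both classes were cut on rule genes, so no test is given, and the values that follow are means over the 6 libraries with at least 10 cells of each class. Apoe averaged 77.6 ± 35.4 CPM in dendritic cells and 5026 ± 1058 CPM in the Csf1r+ class (SD, n = 6). Arg1, the arginine-degrading enzyme of wound macrophages, averaged 3.58 ± 2.58 and 270 ± 93.7 CPM in that order. In the other direction, P2ry14, a receptor for UDP-sugars, averaged 105 ± 19.7 CPM in dendritic cells and 6.48 ± 3.42 CPM in the Csf1r+ class. Batf3, a factor of type 1 cell development, averaged 119 ± 20.7 and 13.4 ± 11.6 CPM. Ranges of Apoe, Arg1, P2ry14 and Batf3, all among the largest ratios between the classes, did not overlap. Other leading genes did overlap. Il4i1, with the largest ratio toward dendritic cells, spanned 8.58 to 229 CPM in them and 0.743 to 11.4 CPM in the Csf1r+ class. Ccl5 and Ccl17 overlapped too. The share of all genes without overlap was not counted.

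The first comparison asked whether dendritic cells were more common on the side of the occlusion. Dendritic cells made up 1.14% of kept cells in the 24 h ipsilateral library labelled Prdx1-/- (65 cells, exact binomial 95% interval 0.881 to 1.45%) and 0.0962% in its contralateral library (5 cells). In the 24 h WT libraries they made up 0.358% ipsilaterally (19 cells) and 0.0633% contralaterally (3 cells). At 48 h they made up 0.594% (30 cells) ipsilaterally and 0.394% (17 cells) contralaterally in the libraries labelled Prdx1-/-. In the 48 h WT libraries they made up 1.67% ipsilaterally (86 cells, interval 1.34 to 2.06%) and 0.481% contralaterally (20 cells). Intervals cover counting error only.

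The ipsilateral share was the higher in 4 of 4 matched pairs, and the ranges overlapped. It averaged 0.942 ± 0.588% ipsilaterally and 0.259 ± 0.210% contralaterally (SD, n = 4 each), 3.64-fold. The exact two-sided permutation p was 0.0857 (smallest possible 0.0286), and 1 after Benjamini-Hochberg adjustment over 12 share tests. The share of all cells moves with the microglia sorted beside them, which made up 11.2 to 41.1% of ipsilateral and 66.6 to 90.4% of contralateral cells. Among cells with no Tmem119 or P2ry12 UMI, dendritic cells made up 1.53 ± 0.877% ipsilaterally and 1.73 ± 0.654% contralaterally (n = 4 each, exact permutation p = 0.743), so the direction turned with the denominator. Cells with no such UMI numbered 2208 to 3645 in ipsilateral and 212 to 854 in contralateral libraries, so this denominator moves with side too. Fewer microglia, more of the other cells and more dendritic cells cannot be told apart in these shares.

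By time the share averaged 0.786 ± 0.598% at 48 h and 0.414 ± 0.502% at 24 h (n = 4 each, exact permutation p = 0.429), higher at 48 h in 3 of 4 pairs. By label it averaged 0.556 ± 0.440% in libraries labelled Prdx1-/- and 0.644 ± 0.709% in WT libraries (exact permutation p = 0.857). The order of the labels differed by time: among ipsilateral libraries, the one labelled Prdx1-/- was the higher at 24 h and the lower at 48 h, which could not be tested with 1 library each.

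**Figure D3:**
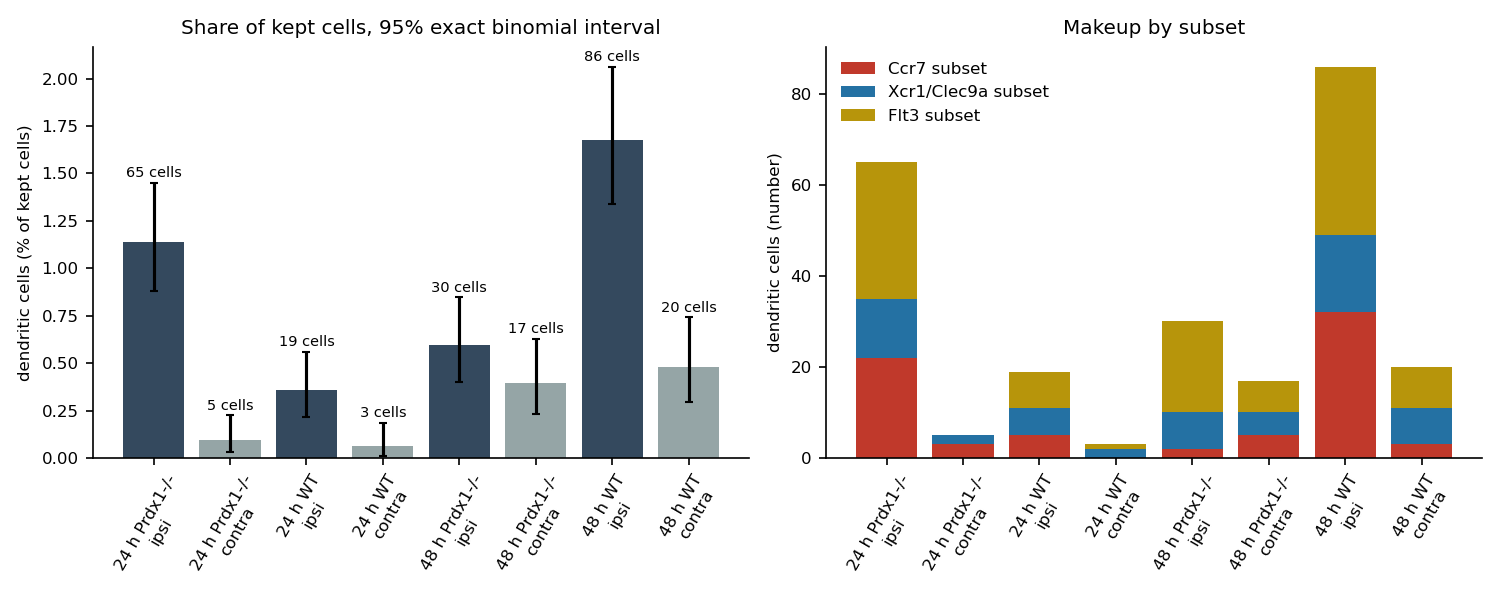
Left, dendritic cells as a percent of kept cells (y axis) in each library (x axis), with exact binomial 95% intervals and cell numbers; right, the number of cells by subset. Ipsilateral (ipsi) bars exceed their contralateral (contra) neighbours in all 4 pairs, and the Ccr7 subset has 2 cells in the 48 h ipsilateral library labelled Prdx1-/-.

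The makeup by subset was compared over the 6 libraries with at least 10 dendritic cells. The Ccr7 subset was 6.67% of them in the 48 h ipsilateral library labelled Prdx1-/- (2 of 30 cells, interval 0.818 to 22.1%) and 37.2% in the 48 h WT ipsilateral one (32 of 86, interval 27.0 to 48.3%). The other 4 libraries lay between 15.0% and 33.8%. Averages were 23.3 ± 14.6% in libraries labelled Prdx1-/- and 26.2 ± 11.1% in WT libraries (n = 3 each, exact permutation p = 0.700, smallest possible 0.100). The Xcr1/Clec9a subset averaged 24.5 ± 5.70% in 4 ipsilateral and 34.7 ± 7.49% in 2 contralateral libraries (exact permutation p = 0.267, smallest possible 0.0667). None of the 12 share tests passed after adjustment.

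Gene levels were then compared with UMIs summed per library, in a fit of hemisphere, time and label together by edgeR's quasi-likelihood test over 4826 genes with Benjamini-Hochberg adjustment. The 24 h contralateral libraries, with 8 dendritic cells in all, were left out, levels below are of the 6 fitted libraries unless stated, and the hemisphere effect rests on 48 h pairs and the time effect on ipsilateral ones. Other factor levels served as replicates, so p-values measure the spread between these libraries and not between animals. A lower sum can come from fewer cells of a subset or from less RNA per cell, which cannot be told apart in a fit over all dendritic cells. No subset had enough libraries for a fit of its own.

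By hemisphere no gene passed an adjusted p of 0.05 (0% called) with edgeR, 1 did with DESeq2 (lower), and 245 of 4826 (5.08%) had an unadjusted p under 0.05. Irf1, an interferon-induced transcription factor, had the smallest p among the higher genes. It stood ipsilaterally at 89.7 CPM (24 h, labelled Prdx1-/-), 59.8 CPM (24 h WT), 184 CPM (48 h, labelled Prdx1-/-) and 86.7 CPM (48 h WT). Contralaterally it stood at 35.3 CPM (48 h, labelled Prdx1-/-) and 11.4 CPM (48 h WT). Those sets did not overlap, but the difference (log2 2.50 ± 0.37 SE, 2 of 2 pairs) missed the threshold (edgeR adjusted p = 0.0596). In the 24 h contralateral libraries, outside the fit, Irf1 stood at 87.3 CPM (7 UMIs, labelled Prdx1-/-) and 43.0 CPM (2 UMIs, WT), the first within the ipsilateral range, and with all 8 libraries the difference was 1.64 (edgeR adjusted p = 0.414). C1qc, a complement subunit, had the smallest p among the lower genes (log2 -3.26 ± 0.47, edgeR adjusted p = 0.0596). Its level was 8.83 to 15.6 CPM in the 4 ipsilateral libraries, against 145 CPM (48 h, labelled Prdx1-/-) and 51.5 CPM (48 h WT) contralaterally. In the 24 h contralateral libraries it stood at 24.9 CPM (2 UMIs, labelled Prdx1-/-) and 0 (WT). In the 48 h contralateral library labelled Prdx1-/-, 1 cell held 27 of the 37 C1qc UMIs. C1qc stood at 5482 CPM in microglial cells, whose share of the libraries moves with hemisphere, and their part in the result was not tested. The summed level of the 5 neutrophil markers outside the rule was 134 to 574 CPM in ipsilateral and 48.6 to 66.6 CPM in contralateral dendritic cells, that of the 4 endothelial markers 19.8 to 179 CPM and 0 to 7.84 CPM, and their part was not tested either. The count of 0 rests on the libraries fitted: it was 42 without the 48 h WT ipsilateral one and 48 without the 48 h ipsilateral one labelled Prdx1-/-. Those fits had fewer libraries to estimate the spread from. Leaving out a 48 h contralateral library left 1 on that side, so no count is given for it.

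Arid5a and Rnf149 came next among the higher genes (log2 1.79 ± 0.33 and 1.58 ± 0.30), and Ly6c2 and Ddit4 among the lower ones (log2 -1.36 ± 0.27 and -1.45 ± 0.30), at edgeR adjusted p of 0.259 to 0.375. The Ly6c2 effect was -0.81 without Siglech-high or hemoglobin-high cells, -0.58 with at least 5 UMIs of the 4 rule genes and -0.43 with all 8 libraries. No member of the gene lists passed by hemisphere. Of 17 class I and cross-presentation genes tested, 0 passed and 1 was higher ipsilaterally (median log2 -0.21, against -0.03 over all genes). The summed level of that list was 7478 to 9284 CPM in ipsilateral libraries. Contralaterally it was 11650 CPM (48 h, labelled Prdx1-/-) and 7536 CPM (48 h WT), so only the first lay above the ipsilateral range. Of 16 interferon-response genes 0 passed and 2 were higher (median -0.65). Of 16 dissociation and immediate-early genes 0 passed and 4 were higher (median -0.42), and 6 had an unadjusted p under 0.05, Fos and Jun among them. Fos, an immediate-early transcription factor, stood at 516 to 713 CPM in ipsilateral libraries, against 1274 CPM (48 h, labelled Prdx1-/-) and 840 CPM (48 h WT) in contralateral ones. Of 8 class II genes outside the rule, 0 passed and 2 were higher (median -0.18).

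By time no gene passed either (0% called), with edgeR or with DESeq2, and 192 (3.98%) had an unadjusted p under 0.05. The genes with the smallest p that were higher at 48 h were Slfn5, Parp14 and Oasl1, all known as interferon-induced. Slfn5 stood at 430 CPM (ipsilateral, labelled Prdx1-/-), 439 CPM (contralateral, labelled Prdx1-/-), 338 CPM (WT ipsilateral) and 206 CPM (WT contralateral) at 48 h, against 101 CPM (labelled Prdx1-/-) and 134 CPM (WT) in the 24 h ipsilateral libraries. Times did not overlap among these 6 libraries (log2 1.72 ± 0.29, 2 of 2 pairs, edgeR adjusted p = 0.471). Of the 24 h contralateral libraries, left out of the fit, the one labelled Prdx1-/- stood at 549 CPM, above every 48 h library, with 43 of its 44 Slfn5 UMIs in 1 cell, and the WT one at 21.5 CPM (1 UMI). With all 8 libraries the Slfn5 effect was 0.97. Lower at 48 h, with the smallest p, were Htra1 (log2 -2.60 ± 0.52), Gm42418 (-0.96 ± 0.22) and Ehd1 (-1.26 ± 0.30), at edgeR adjusted p of 0.878 to 1. Calls numbered 61 without the 48 h ipsilateral library labelled Prdx1-/-, 24 without the 48 h WT ipsilateral one and 8 without the 48 h WT contralateral one. Those fits had fewer libraries to estimate the spread from.

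The interferon-response list pointed the same way as a whole. Of its 16 members tested, 16 had a positive 48 h effect and 0 passed, with a median log2 change of 2.21, against 0.00 over all genes. Isg15, a ubiquitin-like modifier, stood at 248 CPM (ipsilateral, labelled Prdx1-/-), 1003 CPM (contralateral, labelled Prdx1-/-), 456 CPM (WT ipsilateral) and 174 CPM (WT contralateral) at 48 h, against 83.4 CPM (labelled Prdx1-/-) and 49.2 CPM (WT) in the 24 h ipsilateral libraries. Irf7, the factor that amplifies type I interferon, stood at 206, 788, 221 and 117 CPM in the same 48 h libraries, against 55.3 and 80.8 CPM at 24 h. Both genes were higher in each 48 h library than in either 24 h ipsilateral one, and neither passed (log2 2.58 ± 1.15 and 1.80 ± 1.04, edgeR adjusted p = 1 each). In the 24 h contralateral library labelled Prdx1-/-, outside the fit, Isg15 stood at 499 CPM (40 UMIs) and Irf7 at 262 CPM (21 UMIs), each above 3 of the 4 libraries of 48 h, and both were at 0 in the WT one.

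Single cells carried this signal unevenly. Summing 14 genes of the list, without broadly present members such as Ifitm3, Bst2 and Ly6a (a choice made after the values were seen), the median was 3.41 UMIs per 10000 over the 153 cells of 48 h and 1.83 over the 92 cells of 24 h. By matched ipsilateral libraries it was 2.07 at 48 h and 2.02 at 24 h under the label Prdx1-/-, and 3.56 at 48 h and 1.84 at 24 h in WT. At or above 50 per 10000 stood 12 cells, 11 of 48 h and 1 of 24 h. The 11 were all of the Ccr7 subset: 6 in the 48 h WT ipsilateral library, 4 in the 48 h contralateral library labelled Prdx1-/- and 1 in its ipsilateral one. The highest reached 313 per 10000. In the 48 h contralateral library labelled Prdx1-/-, 3 cells held 73.1% of the summed UMIs. The 1 cell of 24 h was an Xcr1/Clec9a cell of the contralateral library labelled Prdx1-/-, outside the fit, with 229 of the 242 summed UMIs of the 5 cells there. Within the Ccr7 subset the median was 7.12 in 42 cells of 48 h and 1.79 in 30 cells of 24 h. The WT ipsilateral library gave 32 of the 42, and the ipsilateral one labelled Prdx1-/- gave 22 of the 30. Time and label thus cannot be told apart in these medians.

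**Figure D4:**
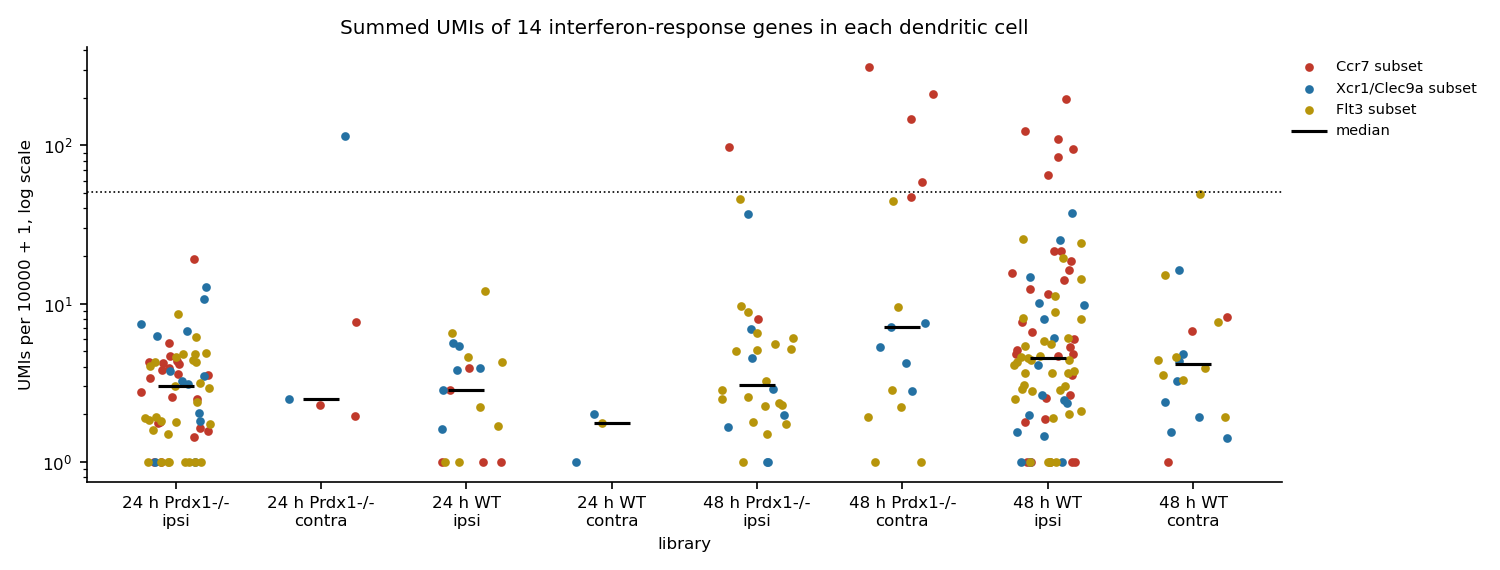
UMIs per 10000 plus 1 (y axis, log scale) of 14 interferon-response genes in each dendritic cell, by library (x axis) and subset (colour), with the median as a bar. The dotted line marks 50 per 10000, above which stand 12 cells, 11 of them from 48 h libraries.

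By label, 4 genes passed (0.0829% called), all lower in libraries labelled Prdx1-/- (edgeR adjusted p = 0.00706 each), 0 were higher, and 119 (2.47%) had an unadjusted p under 0.05. They were Cxcl3, a neutrophil-attracting chemokine, Htra1, a secreted protease, Cd63, a tetraspanin of late endosomes, and Fabp5. DESeq2 called Cd63 and Fabp5, and not Cxcl3 (adjusted p = 0.147) or Htra1 (adjusted p = 0.189). Cxcl3 stood at 22.9 CPM (24 h ipsilateral), 8.86 CPM (48 h ipsilateral) and 3.92 CPM (48 h contralateral) under the label Prdx1-/-, against WT values of 197, 84.3 and 11.4 CPM at the same time and side. It was lower in 3 of 3 pairs, and the label sets overlapped (log2 -3.01 ± 0.34).

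Fabp5 stood at 407, 441 and 372 CPM under the label Prdx1-/-, against WT values of 1941, 1433 and 820 CPM, listed as for Cxcl3. The sets did not overlap (log2 -1.75 ± 0.22). Cd63 stood at 76.1, 48.7 and 15.7 CPM under the label Prdx1-/-, against WT values of 260, 307 and 91.5 CPM, also without overlap (log2 -2.25 ± 0.28). Htra1 stood at 2.09, 2.21 and 0 CPM under the label Prdx1-/-, against WT values of 183, 25.7 and 0 CPM, so 1 of its pairs was tied at 0 (log2 -5.61 ± 0.65).

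All 4 are genes of the Ccr7 subset, which held 91.1% of the Cxcl3, 100% of the Htra1, 91.9% of the Cd63 and 98.2% of the Fabp5 UMIs over all 8 libraries. That subset made up 6.67% to 33.8% of dendritic cells in libraries labelled Prdx1-/- and 15.0% to 37.2% in WT ones. Without its cells, Fabp5 stood at 21.9, 21.0 and 0 CPM under the label Prdx1-/-, against WT values of 8.52, 45.0 and 16.4 CPM. Within the Ccr7 subset it stood at 1181, 8250 and 1285 CPM under the label Prdx1-/-, against WT values of 11090, 4134 and 6411 CPM, so the 48 h ipsilateral pair (2 and 32 cells) ran the other way. Cd63 stood there at 185, 782 and 0 CPM under the label Prdx1-/-, against WT values of 1391, 882 and 591 CPM. Single cells set much of each level. In the 48 h WT contralateral library 1 cell held 282 of 287 Fabp5 UMIs, in the 48 h WT ipsilateral one 1 cell held 91 of 105 Cxcl3 UMIs, and in the 24 h WT ipsilateral one 1 cell held 49 of 52 Htra1 UMIs. With the 24 h contralateral libraries added, 0 genes passed and the Fabp5 effect was -0.21: the 5 dendritic cells of the 24 h contralateral library labelled Prdx1-/- held 4900 CPM of Fabp5, and the 3 of its WT counterpart none. With those libraries added the Cd63 effect was -1.19. Without the 24 h WT ipsilateral or the 24 h ipsilateral library labelled Prdx1-/-, 1 gene passed in each case, which was none of these 4 (edgeR adjusted p of 0.0761 to 1). Without the 48 h WT ipsilateral library 51 genes passed, 39 higher and 12 lower, and without the 48 h ipsilateral one labelled Prdx1-/- 51 passed, 38 higher and 13 lower. Without the 48 h WT contralateral one 9 passed, 4 higher and 5 lower, and without the 48 h contralateral one labelled Prdx1-/- 7 passed, 3 higher and 4 lower, where Cd63 did not (edgeR adjusted p = 0.0681). Some of these fits thus also called genes in the higher direction. Each had fewer libraries to estimate the spread from, so their counts are not on the same footing as the main count. Without cells carrying microglial, border macrophage or neutrophil transcripts 0 passed, at log2 differences of -2.79 (Cxcl3), -5.48 (Htra1), -1.84 (Cd63) and -1.25 (Fabp5) and edgeR adjusted p of 0.0549 to 0.564.

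**Figure D5:**
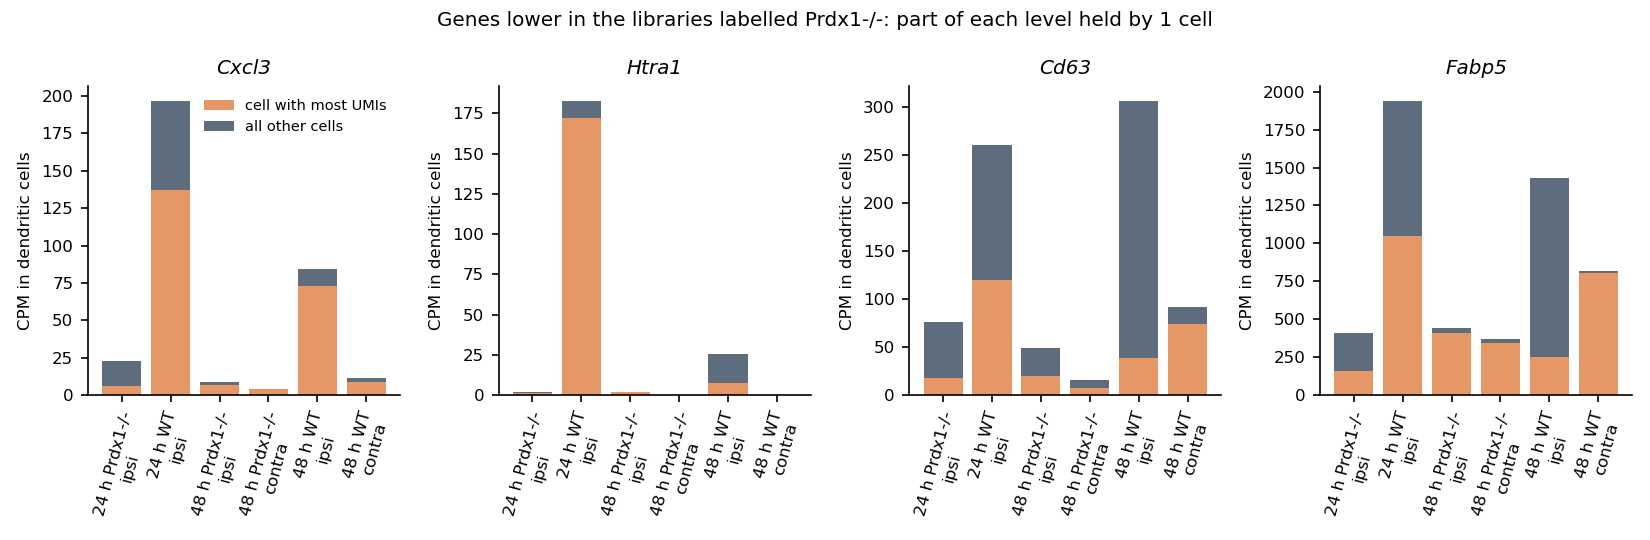
CPM in summed dendritic cells (y axis) of the 4 genes lower in the libraries labelled Prdx1-/-, in each of the 6 libraries fitted (x axis), divided into the cell with the most UMIs and all other cells. Most of the Htra1 bar of the 24 h WT ipsilateral library and of the Fabp5 bar of the 48 h WT contralateral library is 1 cell.

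Among genes higher in libraries labelled Prdx1-/-, Itgam, Hp and Pou2f2 had the smallest p (log2 1.12 ± 0.27, 2.51 ± 0.60 and 1.13 ± 0.28, edgeR adjusted p of 0.824 to 1), each higher in 3 of 3 pairs. Members of the mature list that lead the Ccr7 subset did not pass. Ccl22 stood at 285, 28.8 and 19.6 CPM in libraries labelled Prdx1-/-, against 63.3, 81.9 and 20.0 CPM in WT ones (log2 0.36 ± 1.02, edgeR adjusted p = 1). Fscn1 stood at 62.6, 88.6 and 19.6 CPM, against 28.1, 84.3 and 54.3 CPM (log2 0.03 ± 0.41, edgeR adjusted p = 1). Among 19 antioxidant genes tested, of the kind Prdx1 belongs to, 0 passed and 8 were higher in libraries labelled Prdx1-/- (median log2 -0.12, against 0.00 over all genes). Gsr, Hmox1 and Sqstm1 had an unadjusted p under 0.05. The interferon list had 15 of 16 positive and 0 passing (median 0.57).

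The last comparison asked whether hemisphere acted differently on dendritic cells than on the Csf1r+ class of the same libraries. Of 7044 genes the edgeR interaction test called 4 (0.0568%), 2 higher and 2 lower (0.0284% each), while 411 (5.83%) had an unadjusted p under 0.05. C1qc differed by log2 -2.25 ± 0.37 (adjusted p = 0.0199). In the Csf1r+ class it stood at 170 to 447 CPM in 4 ipsilateral libraries and at 433 and 340 CPM in the 2 contralateral ones, while the sides did not overlap in the dendritic cells of these 6 libraries. Dusp2, a phosphatase that acts on MAP kinases, differed by -1.64 ± 0.27 (adjusted p = 0.0199). It stood at 172 to 458 CPM in ipsilateral and 260 to 329 CPM in contralateral dendritic cells, against 267 to 386 CPM and 99.1 to 121 CPM in the Csf1r+ class. Zfand5, a zinc finger protein that activates the proteasome, differed by 1.19 ± 0.21 (adjusted p = 0.0280), at 334 to 444 CPM in ipsilateral and 200 to 212 CPM in contralateral dendritic cells, against 303 to 379 CPM and 398 to 455 CPM in the Csf1r+ class. In the 24 h contralateral libraries, outside the fit, Zfand5 stood at 344 CPM (16 UMIs, WT), within the ipsilateral range, and 224 CPM (18 UMIs, labelled Prdx1-/-). Dusp2 stood there at 0 (WT) and 424 CPM (34 UMIs, labelled Prdx1-/-). None of these 3 calls held against every single library: with each of the 6 libraries left out in turn, the C1qc call was lost in 4 cases, the Dusp2 call in 5 and the Zfand5 call in 6, with adjusted p up to 0.282, 0.268 and 0.223 and every direction as before.

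Plet1, an epithelial and dendritic cell surface protein, differed by log2 9.51 ± 0.90 (edgeR adjusted p = 3.92e-05). In ipsilateral dendritic cells it stood at 74.1 CPM (24 h, labelled Prdx1-/-), 355 CPM (24 h WT), 48.7 CPM (48 h, labelled Prdx1-/-) and 50.6 CPM (48 h WT). Contralaterally it was at 0 (48 h, labelled Prdx1-/-) and 8.58 CPM (48 h WT), and, outside the fit, at 0 (24 h, labelled Prdx1-/-) and 64.4 CPM (3 UMIs, 24 h WT). Its Csf1r+ level reached 42.8 CPM in the 48 h WT contralateral library and 0 to 1.14 CPM elsewhere, and without that library the call was lost (adjusted p = 1). The size of its change depends on libraries at 0 and is no estimate of a fold.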

How the data were processed

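Single-cell suspensions of brain hemispheres were sequenced from 8 libraries with a 10x Genomics 3′ kit, per the labels' protocols. The deposited values are raw UMI counts per gene and cell (20340 genes), already filtered: the lowest cell had 501 UMIs and 204 genes and the highest 19.9% mitochondrial UMIs. The submitters' processing notes name Cell Ranger, Seurat and the build mm10, with roles not given in the sources used here. Cells with at most 10% mitochondrial UMIs were kept (337 left out), and the rule was applied to raw counts. The members and lists were chosen with earlier results of these data known.

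Counts were summed per library over the dendritic cells. Libraries with at least 10 cells (6 of 8) were fitted with edgeR 4.0.16 (R 4.3.3; quasi-likelihood test, robust, TMM, filterByExpr, additive terms for hemisphere, time and label, Benjamini-Hochberg adjusted p under 0.05). DESeq2 1.42.0 was the alternative. The interaction with class had a term per library and none for class by time or class by label. Matched libraries differ by hemisphere, and no number in the labels pairs animals. Shares were tested by exact two-sided permutation over libraries (scipy 1.17.1), with exact binomial 95% intervals. Floors for a count of 0 use 3 counts. PCR duplicates are collapsed by UMI, and intervals cover counting error only. Doublets were scored with simulated doublets in each library (top-scoring 0.8% per 1000 cells; 1583 cells, 1 of them dendritic) and left in.

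Some genes that the rule names are not reported here. Genes were named by rule: the smallest p or those past the threshold for the fits, and for subsets the 8 largest ratios at 100 CPM or more. Htra1 averaged under the rule's 50 CPM and is named because 4 genes passed. Counts were also simulated with the gene means and sizes of these libraries, but with a fixed spread for all genes that was not estimated from them. At log2 changes of 1, 2 and 3, the fit recovered 9.0%, 90.8% and 100% of changed genes by hemisphere. It recovered 11.0%, 93.4% and 100% by time, and 39.0%, 99.0% and 99.5% by label. Genes whose UMIs sit in few cells can spread more, so these shares do not give the recovery in the real sums. Alternatives covered the low-count filter, libraries, doublets, a stricter rule, other markers, depth (thinning to 4000 UMIs) and the denominator. Promoters are RefSeq entries on GRCm38.p6.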

Additional observations from a re-analysis of the deposited data

Results flagged for a closer look

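In 45 sets of 4 ipsilateral values examined, 4 had a library far from the others. Chance is taken to flag about 1 in 20, but sums that rest on 1 cell can be flagged more often. The Flt3 subset made up 66.7% of dendritic cells in the 48 h ipsilateral library labelled Prdx1-/-, against 42.1% to 46.2% in the other ipsilateral libraries. Htra1 stood at 183 CPM in the 24 h WT ipsilateral library, against 2.09 to 25.7 CPM in the others, with 49 of its 52 UMIs in 1 cell. Gzmb stood at 88.7 CPM in the 24 h ipsilateral library labelled Prdx1-/- and at 0 in the others, with all 85 UMIs in 1 cell. Plet1 stood at 355 CPM in the 24 h WT ipsilateral library, against 48.7 to 74.1 CPM in the others, with 58 of its 101 UMIs in 1 cell.

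The hemisphere effect differed between dendritic and Csf1r+ cells by edgeR's interaction test for 4 genes. That test did not separate time from hemisphere. Plet1 differed by log2 9.51 and Zfand5 by 1.19, both toward dendritic cells. C1qc differed by -2.25 and Dusp2 by -1.64. Causes were not tested.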

How the results depend on the processing

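The labels give every library replicate number 1, so no number pairs the libraries, and matched hemispheres of 1 label and time served as the replicate block. With that replicate block at 48 h, 0 genes differed by hemisphere, as without it. Sign flips within matched pairs gave an exact permutation p of 0.125 for the ipsilateral minus contralateral share of dendritic cells, and turned the Ccr7 subset's hemisphere difference to -0.268 and the Xcr1/Clec9a subset's time difference to -2.57 percentage points (p = 1 each). Among cells without a microglial transcript the hemisphere difference of the dendritic share turned to -0.200 points.

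Leaving out 1 library at a time gave 0 to 48 genes by hemisphere, 0 to 61 by time, 1 to 51 by label and 1 to 15 for the interaction. In the first 3 the highest count came without a 48 h ipsilateral library, and in the last without the 48 h contralateral one labelled Prdx1-/-. Differences in the share of dendritic cells ran from 0.439 to 0.878 points by hemisphere, 0.0752 to 0.613 by time and -0.283 to 0.255 by label. Subset differences ran from -8.45 to 5.45 points by label and 0.0703 to 10.3 by hemisphere (Ccr7), -0.508 to 6.24 by time (Xcr1/Clec9a) and -1.06 to 7.43 by time (Flt3). Htra1's time effect ran from -2.77 to 0.06 and turned without the 24 h WT ipsilateral library; Serpinb9's interaction ran from -2.40 to 3.30 and turned without the 48 h WT contralateral library.

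Without the low-count filter 39 genes differed by hemisphere, 36 by time, 26 by label and 30 in the interaction. DESeq2 called 1 by hemisphere and 2 by label. With at least 5 UMIs of the 4 rule genes the counts were 1 and 2. In ipsilateral libraries only, 8 differed by time and 9 by label. Without cells carrying other markers, and separately with all 8 libraries, 0 differed by label. Without Siglech-high or hemoglobin-high cells 1 differed by hemisphere. The causes were not tested. A minimum of 25 cells per library and fits within a subset were not run, since too few libraries remained. Thinning each cell to 4000 UMIs left 109 dendritic cells (3816 cells were too shallow) and a hemisphere difference of 0.336 points. Sums of 17 to 86 cells per library limit what could be seen.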
